A study of Homo sapiens with 8 samples.

Results

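SREBF2 encodes SREBP-2, the transcription factor that controls cholesterol synthesis, and it carries the gene of the miRNA miR-33a in one of its introns. SREBF2 was described here together with 7 genes of sterol metabolism, HMGCS1, SQLE, INSIG1, FDFT1, FDPS, SC5D and ABCA1, in RNA-seq libraries of A549 cells. The genes were picked by name, with earlier results of these data known. Each of the 8 genes was found by its Ensembl identifier, paired with the symbol in GENCODE 44, among the 58302 genes of the count table. A549 cells are an established line of human lung adenocarcinoma. The 4 libraries labelled siAPEX1 came from cells transfected with an siRNA against APEX1, the gene of the DNA repair enzyme APE1, and the 4 labelled siCTRL from cells given a scramble siRNA. RNA was taken 72 h after transfection in both groups, and both received the same transfection reagent. The comparison asks whether levels of these genes differ between the groups.

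SREBP-2 is made as a precursor in the membrane of the endoplasmic reticulum. When sterols are plentiful, INSIG proteins hold it there together with its escort SCAP. When sterols run low, the complex moves to the Golgi, where proteases free the active factor, which switches on the genes of cholesterol synthesis and uptake. miR-33a, made from the same locus, represses genes of cholesterol export and fatty acid oxidation, with ABCA1 as its best known target.

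APEX1 itself had between 47 and 64 counts in the libraries labelled siCTRL and between 19470 and 27916 in those labelled siAPEX1, which goes against the label, so directions are those of the libraries as labelled. The kit captures small RNA, and whether reads of the transfected siRNA itself are among the APEX1 counts was not tested. Total counts were between 1639796 and 1949886 in the libraries labelled siCTRL and between 1348386 and 1619500 in those labelled siAPEX1, and protein-coding genes other than APEX1 held between 20.5% and 21.7% of them against between 15.5% and 16.6%. Of 6 markers of A549 epithelium, 5 were tested, and the keratins KRT8, KRT18, KRT7 and KRT19 fell, with log2 fold changes between −2.31 and −1.01, while CDH1 rose by 0.92 on the log2 scale. EPCAM, with 34 counts in all against 10, was under the filter on low counts. The part of these differences in the results below was not tested. Of the 10 markers of leukocytes, endothelium and fibroblasts, CD14 (26 counts in all under the label siCTRL and 3 under siAPEX1) and COL1A1 (27 and 10) had the most, PTPRC, CD3E, PECAM1, CDH5 and LUM had at most 1, and none passed the filter on low counts. In bulk RNA, fewer cells of a type and less RNA per cell cannot be told apart.

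The filter on low counts kept 7 of the 8 genes and dropped SC5D. HMGCS1, SREBF2 and SQLE were higher in the libraries labelled siAPEX1 (adjusted p of at most 0.05 in edgeR's quasi-likelihood test), none was lower, and FDPS, FDFT1, ABCA1 and INSIG1 were not called. Over all 5368 genes tested, 31.7% were called, 15.9% as higher and 15.8% as lower, and of the protein-coding genes 28.4% were called. The median log2 fold change (log2FC, libraries labelled siAPEX1 against siCTRL) of the 7 genes was 0.11, and that of all tested genes −0.0035. When a log2FC of 1 or more in size was also asked for, a threshold that the study used, HMGCS1 was the one gene of the 7 left, against 9.28% of all tested genes. The CPM of the groups (counts divided by the library size after correction with TMM factors) did not overlap for HMGCS1, SREBF2 and SQLE, and did not overlap for 28.9% of all tested genes. A count of 0 lower genes was also found at an unadjusted p under 0.05, with edgeR and with DESeq2.

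**Figure D1:**
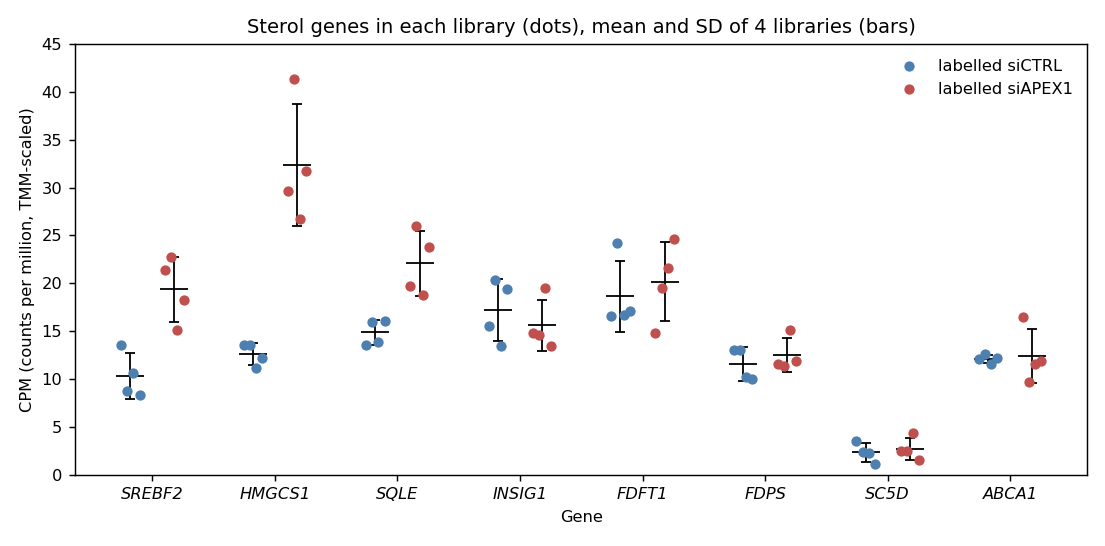
CPM of the 8 genes (y axis, counts scaled by library size and TMM factors) in each library labelled siCTRL (blue) and siAPEX1 (red), with mean and SD of 4 libraries as black bars. For SREBF2, HMGCS1 and SQLE all red dots lie above all blue dots, and for the other genes the dots overlap.

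SREBF2 (ENSG00000198911) lies on chromosome 22 from 41833105 to 41907306, plus strand, in GRCh38. It had 27, 18, 23 and 15 counts in the libraries labelled siCTRL and 26, 28, 21 and 23 in those labelled siAPEX1. These raw counts overlap between groups, while the libraries labelled siAPEX1 were the smaller. After scaling they were 13.6, 8.72, 10.7 and 8.30 CPM against 21.4, 22.7, 15.1 and 18.3 CPM. The lowest library labelled siAPEX1 then lay above the highest labelled siCTRL. The mean was 10.3 ± 2.41 CPM (SD, n = 4) against 19.4 ± 3.39 (SD, n = 4), which gives a log2FC of 0.89 (standard error, SE, 0.218, adjusted p = 0.00136). SREBF2 stayed called under each other scaling, filter and tool and without any 1 library, with the smallest log2FC, 0.55 (adjusted p = 0.039), under scaling by library size only. The highest adjusted p, 0.041, came from DESeq2 (log2FC 0.89, SE 0.312), so both calls lay near the threshold. At a mean of 22.6 counts per library, counting error alone is 21% of the value. Antisense genes overlap exons of SREBF2 (SREBF2-AS1, 13 counts over all libraries), FDFT1 (ENSG00000255046, 11), FDPS (RUSC1-AS1, 3) and HMGCS1 (ENSG00000261604, 1). Whether the counting used strand is not given in the sources used here. A count without strand would leave out reads over the shared exons, and how many reads this concerns is not known.

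The promoter of SREBF2 holds the core of a sterol regulatory element, the DNA motif that SREBPs bind. It is shown because it marks SREBF2 as a gene that carries the binding motif of its own product. The 29 bases at chr22:41832962-41832990 (RefSeq, GRCh38.p14, plus strand), with the motif TCACNCCAC in capitals, begin 143 bases before the transcription start:

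SREBF2 promoter: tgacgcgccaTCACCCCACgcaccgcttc

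This motif was searched on both strands from 250 bases before to 50 bases after each start in RefSeq's promoters, and 1.13% of 35116 promoters hold it. Of the 8 genes, 6 had a promoter in that table. The first listed for each gene was searched, and SREBF2 was the 1 with the motif. A promoter without a match to this exact motif is not shown to lack a sterol regulatory element. The motif CCAAT, bound by the factor NF-Y, which acts with SREBPs at many sterol genes, was found in the promoters of SREBF2, HMGCS1, INSIG1, FDPS and SC5D, and in 34.6% of all promoters. Both motifs were in 0.347% of all promoters. The letters of the motifs can share no more than 1 end base, and a match is a description, not a binding site.

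MIR33A (ENSG00000207932, chromosome 22 from 41900944 to 41901012, plus strand) lies in intron 16 of the 18 introns of SREBF2 and overlaps no exon of its host, so its reads were counted apart from those of SREBF2. Reads of unspliced SREBF2 RNA over that stretch would count as MIR33A too. Its guide strand, miR-33a-5p, is shown with that of miR-33b-5p, the product of MIR33B in SREBF1, because they share a seed (bases 2 to 8, capitals) and so the same targets by seed. Both are from RefSeq (GRCh38.p14).

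miR-33a-5p: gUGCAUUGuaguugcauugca

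miR-33b-5p: gUGCAUUGcuguugcauugc

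Counts of MIR33A were 11, 10, 4 and 11 under the label siCTRL and 6, 9, 2 and 10 under the label siAPEX1, too few to pass the filter. Set against the host in the same library, which needs no scaling, there were 407, 556, 174 and 733 MIR33A counts per 1000 SREBF2 counts under the label siCTRL and 231, 321, 95.2 and 435 under the label siAPEX1. The groups overlap widely, and replicate 3 was the lowest of each group. The means were 468 ± 237 (SD, n = 4) and 271 ± 144 (SD, n = 4), a difference of −197 that did not pass a two-sided exact permutation test (p = 0.229, with 0.0286 the smallest p that 70 labelings allow). The difference was −108 without siCTRL replicate 4 (exact permutation p = 0.457) and −295 without siCTRL replicate 3 (exact permutation p = 0.0857). A difference in this ratio was thus not detectable at these counts. Taken alone, in a fit of every gene with at least 1 count, MIR33A had a log2FC of 0.14 (95% interval −0.61 to 0.89). MIR33B had between 1 and 10 counts per library, and its host SREBF1 a log2FC of 0.15 (SE 0.197, adjusted p = 0.602).

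**Figure D2:**
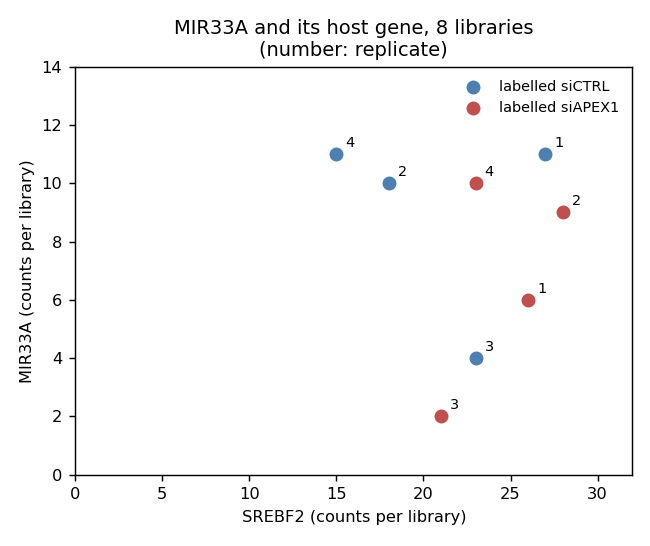
Counts of MIR33A (y axis) against counts of its host gene SREBF2 (x axis) in the 8 libraries, blue for the label siCTRL and red for siAPEX1, with the replicate number beside each dot. MIR33A spans 4 to 11 counts under siCTRL and 2 to 10 under siAPEX1, so the groups overlap on the y axis.

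SREBF1 encodes SREBP-1, the sister factor that mainly drives fatty acid synthesis. SREBF2 counts per 100 SREBF1 counts, a ratio chosen after the values were seen, were 69.2, 51.4, 79.3 and 50 under the label siCTRL and 96.3, 147, 72.4 and 121 under the label siAPEX1. Replicate 3 of the libraries labelled siAPEX1 fell within the range of the other group. The means were 62.5 ± 14.2 and 109 ± 32.2 (SD, n = 4 each), and the difference did not pass a two-sided exact permutation test, at a p of 0.0571 that was the same once adjusted for the 2 ratios examined. That adjustment does not cover the choice of the ratio. Without that replicate the difference of the means went from 46.8 to 59.1. The unadjusted exact permutation p of 0.0286 there follows from taking out the library that overlapped. Without any 1 of the other libraries the difference was between 34.1 and 52.4, with unadjusted exact permutation p between 0.0571 and 0.114.

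Among all tested genes, those whose pattern was most like that of SREBF2 were HBP1, PIM3, TCOF1, LACTB and TGFBI. The measure was the root mean square difference of log2 CPM over the 8 libraries, each gene centred on its own mean, and it was between 0.124 for HBP1 and 0.175 for TGFBI, against a median of 0.569 over all tested genes. Their log2FC values were between 0.59 for LACTB and 0.89 for TCOF1. The measure includes the difference between the groups, so values near that of SREBF2 follow from the selection.

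HMGCS1 (ENSG00000112972, chromosome 5 from 43287470 to 43313512, minus strand) encodes the cytosolic synthase that makes HMG-CoA, an early intermediate of the mevalonate pathway. It had 27, 28, 24 and 22 counts under the label siCTRL and 36, 51, 37 and 40 under the label siAPEX1, so that here the raw counts already separated the groups although the latter libraries were smaller. In CPM these were 13.6, 13.6, 11.1 and 12.2 against 29.6, 41.4, 26.7 and 31.8. Replicate 2 was the highest of the libraries labelled siAPEX1, and replicate 3, the lowest, was still well above each library labelled siCTRL. The mean went from 12.6 ± 1.19 to 32.4 ± 6.37 CPM (SD, n = 4 each), a 2.55-fold rise (log2FC 1.35, SE 0.182, adjusted p = 1.18e-07). HMGCS1 also stayed called under each of those alternatives, with adjusted p between 1.53e-09 and 1.35e-05.

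FDPS (ENSG00000160752, chromosome 1 from 155308748 to 155320666, plus strand) makes farnesyl diphosphate, the branch point between sterols and prenylated proteins. It had 26, 27, 22 and 18 counts under the label siCTRL against 14, 14, 21 and 15, or 13.1, 13.1, 10.2 and 9.96 against 11.5, 11.4, 15.1 and 11.9 CPM. The groups overlapped after scaling, with replicate 3 apart from the rest under the label siAPEX1, and the log2FC was 0.11 (95% interval −0.35 to 0.57, adjusted p = 0.751). GENCODE names 8 pseudogenes of FDPS, all with 0 counts, and reads that match several places of the genome are not counted, so the level of FDPS is uncertain.

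FDFT1 (ENSG00000079459, chromosome 8 from 11795573 to 11839395, plus strand) makes squalene, the first step committed to sterols. Its CPM were 16.6, 24.2, 16.7 and 17.2 under the label siCTRL and 14.8, 19.5, 21.6 and 24.6 under the label siAPEX1. Replicate 2 stood apart from the rest of the libraries labelled siCTRL. The highest and the lowest libraries of the 8 both carried the label siAPEX1, and the log2FC was 0.11 (95% interval −0.28 to 0.50, adjusted p = 0.704).

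SQLE (ENSG00000104549, chromosome 8 from 124998497 to 125022283, plus strand) oxidizes squalene and is a further control point of the pathway. It had 27, 33, 30 and 29 counts under the label siCTRL and 24, 32, 26 and 30 under the label siAPEX1, that is, about as many in smaller libraries. In CPM it had 13.6, 15.98, 13.9 and 16.1 against 19.8, 26.0, 18.7 and 23.8, and the groups no longer overlapped. The mean went from 14.9 ± 1.32 to 22.1 ± 3.40 CPM (SD, n = 4 each), a log2FC of 0.57 (SE 0.188, adjusted p = 0.018). The call of SQLE was lost under scaling by library size only (log2FC 0.22, adjusted p = 0.352), with DESeq2 (0.55, adjusted p = 0.205), in the fit of every gene with at least 1 count (0.47, adjusted p = 0.143) and without siAPEX1 replicate 2 (0.50, adjusted p = 0.0633). The direction was kept in each of these.

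SC5D (ENSG00000109929, chromosome 11 from 121292681 to 121313410, plus strand), a desaturase late in the pathway, did not pass the filter. It had 7, 5, 5 and 2 counts under the label siCTRL and 3, 3, 6 and 2 under the label siAPEX1. In the fit of every gene with at least 1 count its log2FC was 0.12, with a 95% interval from −0.92 to 1.153, so that a change of either sign within that interval was not detectable at this depth.

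INSIG1 (ENSG00000186480, chromosome 7 from 155297776 to 155310235, plus strand) encodes the protein that retains SREBP-2 in the endoplasmic reticulum and is itself an SREBP target. It had 31, 42, 29 and 35 counts under the label siCTRL and 18, 18, 27 and 17 under the label siAPEX1, or 15.6, 20.3, 13.4 and 19.4 against 14.8, 14.6, 19.5 and 13.5 CPM. The raw counts separated the groups downward, and the CPM overlapped. The log2FC was −0.12 (95% interval −0.54 to 0.29, adjusted p = 0.696), and under scaling by library size only it was −0.46 (adjusted p = 0.0618).

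HMGCS1 and INSIG1 are both targets of SREBPs, and their ratio within a library needs no scaling. It was chosen after the values were seen. HMGCS1 counts per 100 INSIG1 counts were 87.1, 66.7, 82.8 and 62.9 under the label siCTRL and 200, 283, 137 and 235 under the label siAPEX1. The lowest library labelled siAPEX1 lay above the highest labelled siCTRL. The means were 74.8 ± 11.9 and 214 ± 61.6 (SD, n = 4 each), with p = 0.0286 in a two-sided exact permutation test, the smallest it allows. Adjusted by Benjamini-Hochberg for the pair of ratios, p was 0.0571, which misses the threshold. That adjustment does not cover the choice of the ratio after its values were seen, so neither p is a test of it. Without any 1 of the libraries labelled siCTRL, the unadjusted exact permutation p was 0.0571, and without any 1 of those labelled siAPEX1 it was 0.0286. The groups stayed apart in each case.

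ABCA1 (ENSG00000165029, chromosome 9 from 104781006 to 104928155, minus strand) encodes the transporter that hands cholesterol to apolipoprotein A-I. It had 24, 26, 25 and 22 counts under the label siCTRL and 20, 12, 16 and 15 under the label siAPEX1, or 12.1, 12.6, 11.6 and 12.2 against 16.5, 9.74, 11.5 and 11.9 CPM. The spread was larger under the label siAPEX1, where replicate 1 was the highest of the 8 libraries and replicate 2 the lowest. The log2FC was 0.03 (95% interval −0.43 to 0.49, adjusted p = 0.935), so that changes within that interval were not detectable at this depth.

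The 3′UTR of ABCA1 holds 4 matches to the miR-33 seed (CAATGCA, the reverse complement of bases 2 to 8 in DNA letters), and those of the other 7 genes hold 0. Of the 4855 protein-coding genes tested with a 3′UTR in GENCODE 44, 9.93% have at least 1 match. The first 3 matches lie close together, and they are shown because they link ABCA1 to the miRNA inside SREBF2. They are in exon 50 of its 50 exons, at chr9:104784155-104784184 (GRCh38, minus strand, written 5′ to 3′ along the transcript), with the matches in capitals and the first 2 overlapping:

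ABCA1 3′UTR: tattCAATGCAATGCAattCAATGCAatga

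Levels were compared between genes per kilobase of annotated exon, taken over all transcripts of a gene together. The transcripts present in these cells may be shorter, by an amount that differs between genes, so the order of the genes is uncertain. In the libraries labelled siCTRL, INSIG1 was the highest with 4.71 ± 0.885 CPM per kb (SD, n = 4), followed by FDFT1 (3.67 ± 0.730), SQLE (3.46 ± 0.307) and FDPS (3.11 ± 0.466). Neighbours among these differed by less than the sum of their SDs. HMGCS1 (1.90 ± 0.179), SREBF2 (1.28 ± 0.299), ABCA1 (1.07 ± 0.0364) and SC5D (0.233 ± 0.0981) lay below, with SREBF2 and ABCA1 again closer than the sum of their SDs. In the libraries labelled siAPEX1, SQLE (5.13 ± 0.790) and HMGCS1 (4.89 ± 0.961) had the highest means, followed by INSIG1 (4.27 ± 0.723), FDFT1 (3.96 ± 0.812) and FDPS (3.36 ± 0.480), and neighbours among these differed by less than the sum of their SDs. On this scale HMGCS1 moved from below FDPS, whose level is uncertain as said above, to among the highest of the 8. SREBF2 (2.41 ± 0.421), ABCA1 (1.09 ± 0.252) and SC5D (0.269 ± 0.115) remained the lowest.

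Of the 15 other enzymes of sterol synthesis reported here, 7 passed the filter, 1 was higher and 0 lower, with a median log2FC of 0.15. At an unadjusted p under 0.05, 0 were also lower, with edgeR and with DESeq2. The share called was 14.3%, against 31.7% of all tested genes (15.9% higher and 15.8% lower). LBR, a sterol reductase that is also a receptor of the nuclear lamina, had 9, 8, 18 and 13 counts under the label siCTRL and 21, 14, 25 and 17 under the label siAPEX1. It rose from 5.98 ± 2.13 to 15.1 ± 3.15 CPM (SD, n = 4 each; log2FC 1.32, SE 0.266, adjusted p = 1.17e-04). EBP, DHCR7, IDI1, GGPS1, TM7SF2 and MSMO1 were tested and not called, with log2FC values between −0.34 for MSMO1 and 0.34 for EBP.

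Of the 9 genes of SREBP control and sterol uptake reported here, 4 passed the filter and 0 were called by edgeR or DESeq2, and 0 also had an unadjusted p under 0.05 in either direction with either tool. They were SREBF1, the sterol carrier STARD4 and the site-1 and site-2 proteases MBTPS1 and MBTPS2, which free SREBPs from the Golgi membrane. The log2FC was 0.15 for STARD4 (95% interval −0.43 to 0.74), −0.43 for MBTPS1 (95% interval −0.92 to 0.07) and −0.45 for MBTPS2 (95% interval −1.08 to 0.17). Under scaling by library size only, 2 of the 4 were called. Of all 5368 tested genes, 1703 (31.7%) were called with TMM scaling and 2285 with library size only.

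**Figure D3:**
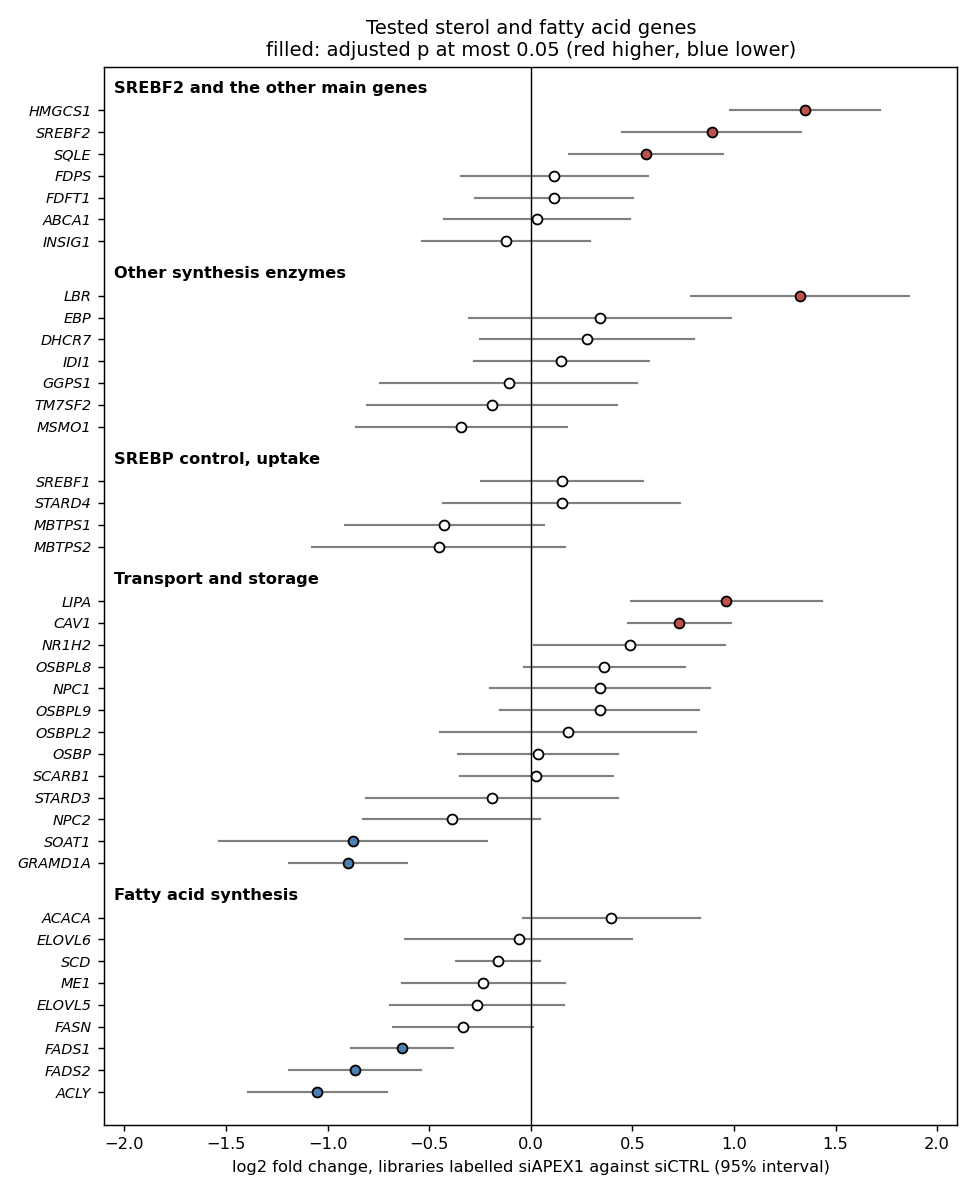
Log2 fold changes of the tested genes of each list (x axis, libraries labelled siAPEX1 against siCTRL) with 95% intervals as grey lines, filled in red or blue where the adjusted p was at most 0.05. HMGCS1 (1.35), LBR (1.32), LIPA (0.96), SREBF2 (0.89) and CAV1 (0.73) lie to the right of 0, and ACLY (−1.05), GRAMD1A (−0.90) and FADS2 (−0.86) to the left.

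Of 16 genes of sterol efflux, transport and storage, 13 were tested, 2 were higher and 2 lower, with a median log2FC of 0.18. The share called, 30.8%, was near the 31.7% of all tested genes, and the number called was 6 without siAPEX1 replicate 1 and 3 or 4 without any other library. LIPA, the lysosomal lipase that frees cholesterol from its esters, rose with a log2FC of 0.96 (SE 0.233, adjusted p = 0.00122), and CAV1, the coat protein of the cholesterol-rich caveolae, with 0.73 (SE 0.125, adjusted p = 1.06e-05). With DESeq2, LIPA was near the threshold (adjusted p = 0.0441). GRAMD1A, which carries cholesterol from the plasma membrane to the endoplasmic reticulum, fell from 53.1 ± 8.59 to 28.4 ± 2.94 CPM (SD, n = 4 each; adjusted p = 3.38e-06). SOAT1, which makes cholesteryl esters for storage, had a log2FC of −0.88 (adjusted p = 0.0363). SOAT1 was no longer called with DESeq2 (adjusted p = 0.254), with the replicate number as a block (adjusted p = 0.0674), in the fit of every gene with at least 1 count (adjusted p = 0.0537) and without any 1 of siCTRL replicates 3 and 4 and siAPEX1 replicates 2, 3 and 4 (adjusted p between 0.068 and 0.177).

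Of 10 genes of fatty acid synthesis, which answer mainly to SREBP-1, 9 were tested, 3 were lower and 0 higher (0 higher also at an unadjusted p under 0.05, with edgeR and with DESeq2), with a median log2FC of −0.26. The share called, 33.3%, was also near that of all tested genes. ACLY, which makes cytosolic acetyl-CoA for both fatty acids and sterols, had 70, 73, 69 and 56 counts under the label siCTRL and 18, 23, 23 and 18 under the label siAPEX1. It fell from 33.4 ± 2.23 to 16.1 ± 1.98 CPM (SD, n = 4 each; log2FC −1.05, SE 0.169, adjusted p = 3.47e-06). The desaturases FADS2 and FADS1 had log2FC values of −0.86 (adjusted p = 4.25e-05) and −0.63 (adjusted p = 9.64e-05). FASN and SCD were not called, at −0.34 (adjusted p = 0.135) and −0.16 (adjusted p = 0.237). With library size only, 7 of the 9 were called.

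Of 9 genes known as targets of miR-33, ABCA1 among them, 7 were tested and 1 was called, against 31.7% of all tested genes. While 2668 of all 5368 tested genes had a log2FC above 0, 6 of the 7 did, and the median of the 7 was 0.34. Of these 6, ABCA1 (0.03) and ATP8B1 (0.04) lay close to 0, and none was called. These signs depend on the scaling: under library size only ABCA1 was at −0.31 and the median of all tested genes at −0.34. CPT1A, which brings fatty acids into mitochondria for oxidation, fell from 18.9 ± 4.04 to 9.81 ± 1.18 CPM (SD, n = 4 each; log2FC −0.95, SE 0.226, adjusted p = 0.001), the 1 called gene and the 1 below 0. IRS2 and HADHB were close to the threshold on the other side, with log2FC values of 0.40 (adjusted p = 0.0511) and 0.48 (adjusted p = 0.0557). At an unadjusted p under 0.05, 2 of the 7 were higher with edgeR and 0 with DESeq2. The 3′UTR of each of the 9 holds between 1 and 4 seed matches.

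The scaling of the libraries decides much of these values. TMM factors were between 1.10 and 1.14 under the label siCTRL and between 0.873 and 0.919 under the label siAPEX1. Under scaling by library size only, the median log2FC of all tested genes was −0.34. HMGCS1 had 1.01 and SREBF2 0.55 there and stayed called, while SQLE had 0.22 and was not called.

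**Figure D4:**
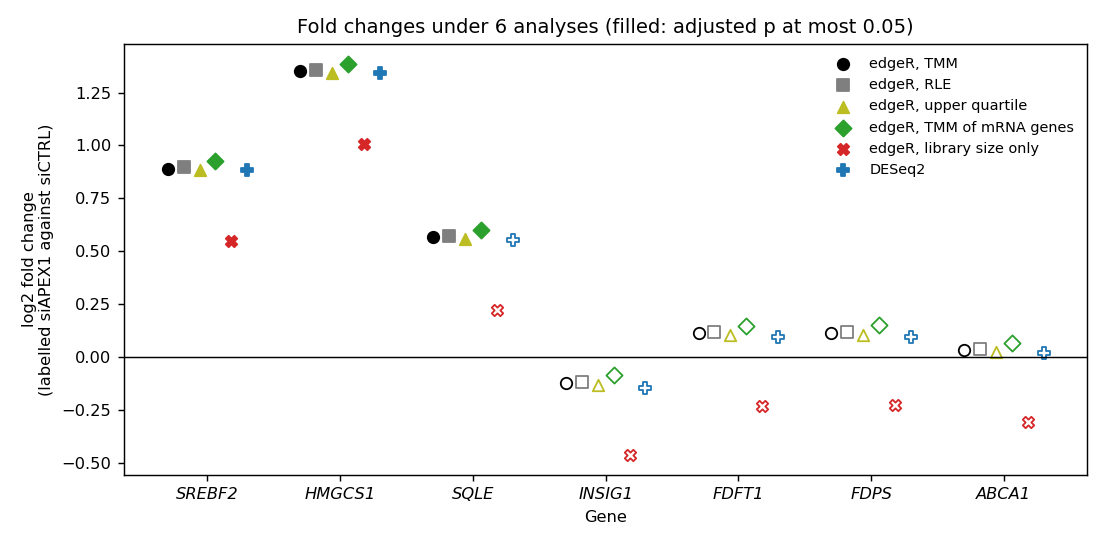
Log2 fold changes (y axis, libraries labelled siAPEX1 against siCTRL) of the 7 tested genes under 6 analyses, 1 symbol for each, filled where the adjusted p was at most 0.05. HMGCS1 and SREBF2 are filled throughout. Under library size only (red crosses) FDFT1, FDPS and ABCA1 move below 0, to −0.23, −0.23 and −0.31.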

How the data were processed

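RNA-seq was performed on 8 libraries of A549 cells, 4 labelled siCTRL and 4 labelled siAPEX1, with a kit for small RNA that the authors adapted so as to capture primary miRNA transcripts. The deposited values are raw counts per Ensembl gene, made by the authors with STAR 2.5.3a on GRCh38, whose GeneCounts mode leaves out reads that map to several places or overlap several genes. The strand that was counted and the annotation release are not given in the sources used here. Count columns were matched to samples by cell line, treatment and replicate number, since the leading code of 1 sample title differs from its column. Of 58302 genes, 57532 matched GENCODE 44.

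edgeR 4.0.16 (R 4.3.3) was run on all genes, with genes kept by filterByExpr (minimum count 10, minimum total 15) and TMM scaling. Its quasi-likelihood p-values were adjusted by Benjamini-Hochberg over 5368 genes. The programs were tested on simulated data. Standard errors are the size of the log2 fold change over the square root of F. DESeq2 1.42.0, other scalings and filters, a replicate block and leaving out each library were the alternatives. The study calls the libraries biological replicates, but neither its methods nor the labels say that they came from separate cultures. The p-values thus compare libraries, and at the low counts here counting error is a large part of the error they use. DESeq2 gave larger standard errors than edgeR for SREBF2 (0.312 against 0.218), HMGCS1 (0.261 against 0.182) and SQLE (0.273 against 0.188). Named were the 8 genes, the list genes with an adjusted p of at most 0.05 and the 5 genes most like SREBF2. List genes that were not called were named after their values were seen. Genes and lists were chosen with earlier results of these data known. Some genes of the synthesis, SREBP control and marker lists are not reported here, and the counts of those lists leave them out.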

Additional observations from a re-analysis of the deposited data

Results flagged for a closer look

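Within groups of 4 libraries, 1 library stood far from the other three in 2 of the 16 combinations of gene and group examined, where chance flags about 1 in 20. FDFT1 had 24.2 CPM in siCTRL replicate 2, with the next highest library of its group at 17.2. FDPS had 15.1 CPM in siAPEX1 replicate 3, with the next highest at 11.9. Neither gene was called, and without these libraries the log2 fold changes were 0.27 for FDFT1 (adjusted p = 0.363) and 0.03 for FDPS (adjusted p = 0.953).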

How the results depend on the processing

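Over 112 alternative values of the 7 tested genes' log2 fold changes, 102 kept their direction and their side of the threshold, 4 kept the direction and lost the call (all of SQLE) and 6 changed sign, all of genes that were not called. With library size only these were FDFT1 and FDPS (−0.23 each) and ABCA1 (−0.31). ABCA1 was also at −0.062 when all genes with any count were fitted and at −0.054 when a gene needed 10 counts in each library, and between −0.10 (without siAPEX1 replicate 1) and 0.15 with 1 library left out. The number of the 8 genes called higher was 3, and 2 or 3 in each alternative except 1 with the fold change threshold of 1. That threshold left 0 genes of transport, 1 of fatty acid synthesis and 0 of the miR-33 targets. Library size only gave 1 other synthesis enzyme lower, where 0 were, 2 called genes of SREBP control, where 0 were, and 7 of fatty acid synthesis. The minimum of 10 counts in each library left 0 other synthesis enzymes higher, since LBR was then not tested. For the miR-33 targets, where 1 was called, RLE factors gave 2, TMM factors from protein-coding genes 3 and leaving out 1 library 1 to 3 (3 without siAPEX1 replicate 2, 2 without siCTRL replicate 3 or 4). Over all genes 1703 were called, 902 with DESeq2 and 2285 with library size only, where 14.9% of the calls were higher against 50.3%. Same-numbered libraries did not deviate together (correlations between −0.0373 and −0.0035), and the replicate block gave 3 of the 8 genes higher and 1595 calls over all genes. Of the called genes of the sterol, fatty acid and miR-33 lists, it changed the call of SOAT1, and single A549 markers were not examined under it. The ratios of counts within a library are given without single libraries beside their values. Counts of 12 to 51 per library for the tested genes limit what can be seen, and the cause of each shift was not tested.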
